A study of Mus musculus with 12 samples.

Results

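Transcript levels of Trp53, its family, its regulators and its target genes were compared between mouse lung tumors and normal mouse lung. Trp53 encodes p53, a transcription factor and tumor suppressor. The 33 genes were chosen by symbol from the known p53 pathway. The rule uses no measured value, but the choice was made with earlier results of these data known. All 33 were found among the 30399 genes of the table. They comprise 3 family members, 3 regulators, 11 targets that act in growth arrest and stress control, 11 targets that act in apoptosis and 5 targets that act in DNA repair and nucleotide supply.

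The samples were 5 normal lungs and 7 tumors, from a study that made mouse lung cancer models by CRISPR/Cas9 mutagenesis without a viral vector. Cas9 is a nuclease led by a guide RNA, and faulty repair of its cuts can disable a gene. Trp53 was, as far as is known of the study, among the tumor suppressor genes it set out to disrupt, but the labels do not say which gene was cut in which tumor, and they give no strain, sex, age, genotype, agent or time for either group. Tumors 1 and 7 carry the Spanish word for trachea in their titles, tumors 3, 4, 5 and 6 the word for lung, and tumor 2 neither. The 7 tumors carry 4 title numbers, with tumors 3 and 4 sharing 159 and tumors 5, 6 and 7 sharing 201, so they may not all come from different animals.

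p53 is held low in unstressed cells because Mdm2, an E3 ubiquitin ligase, marks it for degradation, and Mdm2 is itself a p53 target. DNA damage or oncogene signals release p53, which binds DNA as a tetramer and switches on genes for cell cycle arrest, apoptosis, DNA repair and its own restraint.

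p53 binds a 20-base sequence known as the p53 full site. The promoters shown have the closest matches among those of the 33 genes that were higher or lower in tumors and had a promoter window. RefSeq promoter windows on GRCm38.p6, 250 bases before to 50 bases after an annotated start, were found for 24 of the 33 genes (33 windows, since some genes have several starts). The other 9, which were not searched, are Ddb2, Perp, Pmaip1, Rrm2b, Tnfrsf10b, Trp53inp1, Trp63, Xpc and Zmat3. Windows were searched for the full site with its 4 fixed bases intact (CNNGNNNNNNCNNG) and up to 3 mismatches at the other positions. The motif equals its own reverse complement, so the search covers both strands, and no second motif was searched. A match was found in windows of 7 genes (8 of 33 windows, 24.2%), and in 1.38% of all 32851 windows in the table. With at most 1 mismatch it was found for Ccng1 and Rps27l (6.06% of the 33 windows), against 0.0670% of all windows. A match is a match of letters and says nothing of binding in these samples.

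The 250 bases before the start are printed for Ccng1, a gene that was lower in the tumors, on the minus strand at chr11:40755287-40755536, and for a start of Trp73, a gene that was higher, on the minus strand at chr4:154097174-154097423. Capitals mark the match to the full site, with 1 mismatch in Ccng1 and 2 in Trp73.
Ccng1: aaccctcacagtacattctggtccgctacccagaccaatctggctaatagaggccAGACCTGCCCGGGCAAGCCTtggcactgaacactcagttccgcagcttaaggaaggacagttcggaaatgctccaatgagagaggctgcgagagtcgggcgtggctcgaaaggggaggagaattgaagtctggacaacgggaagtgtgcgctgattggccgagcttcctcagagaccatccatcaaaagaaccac
Trp73: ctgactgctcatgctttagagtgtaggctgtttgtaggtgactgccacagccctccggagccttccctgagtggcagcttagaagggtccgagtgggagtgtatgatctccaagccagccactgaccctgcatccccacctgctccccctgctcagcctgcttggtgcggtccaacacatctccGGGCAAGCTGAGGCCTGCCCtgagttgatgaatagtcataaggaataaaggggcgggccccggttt

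The matches of the other genes are printed with the 4 fixed bases in capitals, each 5′ to 3′ on the strand of its gene. Rps27l has 1 mismatch (chr9:66946296-66946315, plus strand) and Bbc3 (chr7:16309486-16309505, plus strand), Sesn1 (chr10:41887266-41887285, plus strand), Aen (chr7:78895937-78895956, plus strand) and Trp53 (chr11:69580284-69580303, plus strand) have 3 each. Cdkn1a, which is not among the 33 genes but is the best known p53 target, has 1 (chr17:29090928-29090947, plus strand), as does Gtse1 (chr15:85859945-85859964, plus strand), a further p53 target that was higher in tumors (log2 fold change 4.54) and was picked here for its match. The Trp53 match lies between Trp53 and its neighbor Wrap53, a gene singled out after its values were seen, whose window on the opposite strand holds the same bases.
Rps27l: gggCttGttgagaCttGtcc
Bbc3: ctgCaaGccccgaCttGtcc
Sesn1: aagCttGtttttgCtgGcct
Aen: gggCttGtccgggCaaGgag
Trp53: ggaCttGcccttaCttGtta
Cdkn1a: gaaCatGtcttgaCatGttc
Gtse1: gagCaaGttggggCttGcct

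The deposited values are normalized read counts, that is, reads per gene divided by a factor for the sample's depth. Totals ran from 11126432 to 17032234 recovered reads in normal lungs and from 13093843 to 24217633 in tumors, and 3 reads correspond to a value of at most 4.85 in normal lung and 3.57 in tumors. The 12 values of a gene were compared with limma on log2(value + 1), with p-values adjusted over all 23674 genes tested by the Benjamini-Hochberg method. A gene is said to be higher or lower, to have risen or to have fallen, only where the adjusted p is under 0.05. Because 1 was added to each value before the log, fold changes of weakly counted genes are understated. The replicates are separate samples, but the labels do not say that each came from a different animal, so the p-values measure the spread between these samples. Tissue labels were checked against marker lists. All 5 neuroendocrine markers were higher in tumors, with a summed value of 20814 to 102932 against 97.8 to 132. All 7 lung epithelium markers were lower, with sums of 579.99 to 2855 against 269171 to 487549.8, and Sftpa1 was at 0 in tumor 7. All 5 proliferation genes were higher. The 5 leukocyte markers summed to 5634 to 9526 in normal lungs, to 216 to 1726 in tumors 1 to 6 and to 6875 in tumor 7, with Cd3e at 0 in tumors 1, 2 and 3. In whole tissue, fewer cells of a type and less RNA per cell cannot be told apart.

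Of the 33 genes, 4 were higher in tumors and 12 were lower, and 17 did not pass the test, as 38.5% of all genes tested did not. Together 48.5% were called, where 61.5% of all genes tested were. The 4 higher genes make up 12.1%, against a background of 31.4%, and the 12 lower genes 36.4%, against 30.1%. Tumors and normal lungs did not overlap in 9 genes (27.3%), where 38.4% of all genes tested did not. All tumors lay above in 3 of them, against 20.1% of all genes, and below in 6, against 18.4%. The median log2 fold change was 0.01 over the 33 genes and 0.04 over all genes tested. The count of lower genes was 7 with edgeR, a test on the recovered reads of 11 samples that called 34.9% of the genes it tested higher and 26.3% lower, and 7 when all samples were scaled to equal totals, which raised the median fold change of all genes by 0.19. Equal totals gave 8 higher genes. Over all 23674 genes tested, equal totals called 8594 higher and 6129 lower, against 7430 and 7124 in the main fit. Leaving out tumors 1 and 7 gave 8 higher and 13 lower of the 33, so the number called of the 33 depends on these tumors. Over all genes tested, the fit without tumors 1 and 7 called 7598 higher and 7514 lower. The 16 calls comprise 10 that held under each of the 23 alternatives run (Trp73, Ppm1d, Zmat3 and Ddit4, which were higher, and Ccng1, Plk2, Phlda3, Fas, Perp and Rrm2b, which were lower).

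**Figure D1:**
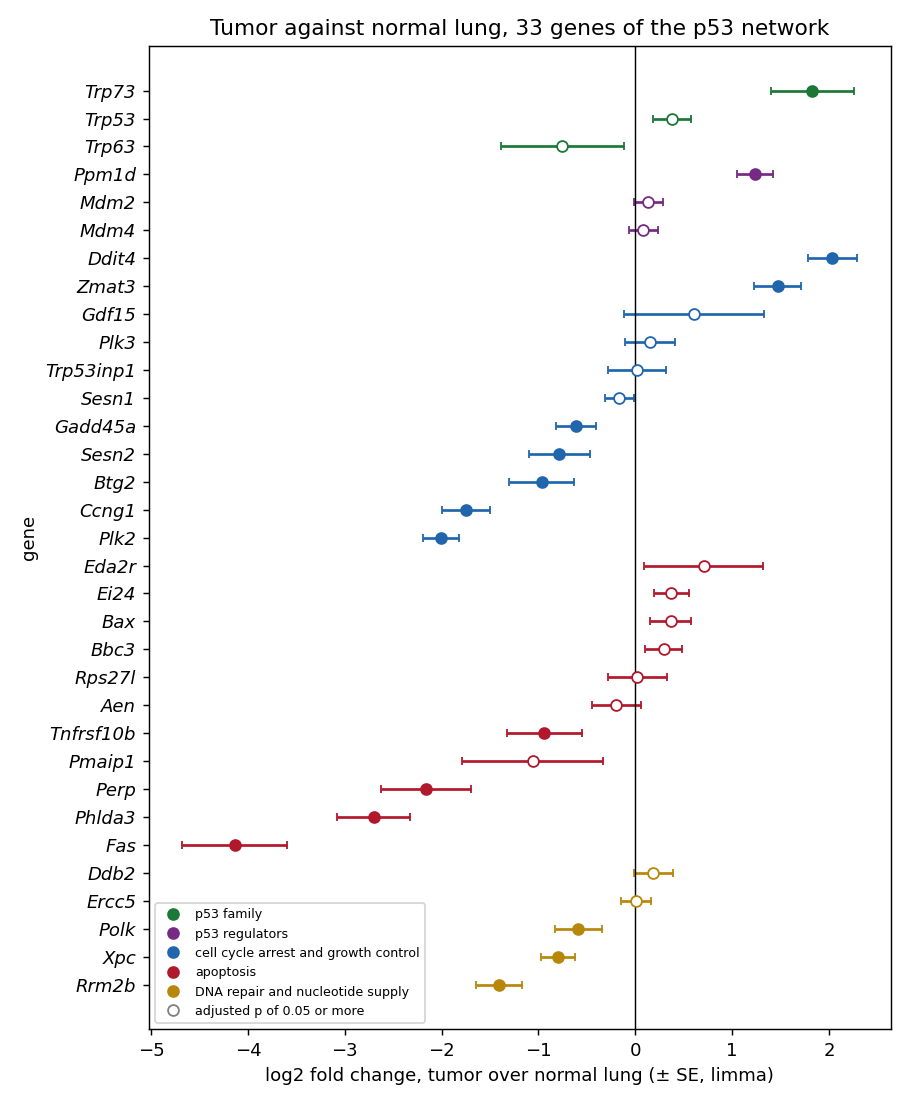
Log2 fold change of tumor over normal lung for each of the 33 genes (horizontal axis, points with bars of 1 SE from limma, 5 normal lungs and 7 tumors), grouped and colored by role. Filled points mark the 16 genes with an adjusted p under 0.05, and Fas at -4.14 and Ddit4 at 2.03 are the ends of the range.

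Of the 3 family members 1, Trp73, was higher (33.3%, against 31.4% of all genes tested) and none was lower (against 30.1%). Trp53 (ENSMUSG00000059552) was measured at 1028, 683, 992, 772 and 953 normalized counts in the 5 normal lungs, given in order of their numbers here and for the genes that follow, and at 859.7, 1712, 1299.8, 1447, 871, 1036 and 997 in tumors 1 to 7. Tumors 2, 3 and 4 lay above every normal lung and the other 4 tumors lay within the normal lung range or, for tumor 6, just above it. Its difference did not pass the test (log2 fold change 0.38, SE 0.20, limma adjusted p = 0.106), although it did under equal totals (0.59, adjusted p = 0.0181) and without the trachea-titled tumors (0.50, adjusted p = 0.0441). Trp53 transcripts were thus at normal lung levels or above in all 7 tumors. Counts per gene are blind to small insertions and deletions within the transcript. Wrap53, which lies next to Trp53 on the opposite strand and encodes a telomerase subunit, rose from a range of 164 to 237 in normal lungs to one of 387 to 681 (log2 fold change 1.44, SE 0.17, limma adjusted p = 1.01e-05), with all tumors above all normal lungs. The annotated exons of the pair do not overlap.

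Trp73 (ENSMUSG00000029026) encodes p73, a relative of p53 that can bind the same sites, is a target of E2F factors and is needed for multiciliated airway cells. It had 574, 399.96, 229, 316 and 481 in normal lungs and 3005, 492, 1496, 2284, 1582, 1768 and 587 in tumors. Tumors 1, 3, 4, 5 and 6 were well above every normal lung, while tumor 2 lay within the normal range and tumor 7 just above it. Trp73 was higher in tumors (log2 fold change 1.83, SE 0.43, limma adjusted p = 0.00219). Over the same samples the 6 multiciliated cell markers summed to 9232 to 16722 in normal lung and 1245 to 2570.3 in tumors, with 4 of 6 lower and 1 higher, and Dynlrb2 was at 0 in tumor 7. The summed level of those markers was thus lower in tumors while Trp73 was higher. In tumors 1 to 7 the sum was 2570, 1312, 1245, 1677, 1316, 1745 and 1356. Ccdc39, the marker that was higher, made up 1063, 796, 662, 503, 751, 594 and 385 of it. The exons of Ccdc39 overlap those of Ttc14 on the opposite strand over 16.9% of their length. Tumors 1, 4 and 6 were the highest in both this sum and Trp73, while tumor 3 was the lowest in the sum and tumor 2 in Trp73. The part of multiciliated cells in the Trp73 level was not tested.

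Trp63 (ENSMUSG00000022510), whose product p63 maintains basal cells of stratified and airway epithelium, was close to the limit of counting. It ranged over 6.45 to 25.8 in normal lungs, and tumors had a lowest of 1.62, a median of 10.8 and a highest of 33.9. Groups overlapped and the difference did not pass the test (log2 fold change -0.75, SE 0.63, limma adjusted p = 0.317). Of the 4 basal cell markers 1, Ngfr, was higher in tumors (log2 fold change 1.44, SE 0.46, limma adjusted p = 0.0151) and none was lower, with sums of 22.6 to 189.7 and 47.7 to 399, and Ngfr made up 392 of the highest sum, in tumor 7. Krt14 was at 0 in normal lungs 1, 2 and 4 and in tumors 2 and 3.

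Of the p53 inhibitors Mdm2 and Mdm4 neither passed the test. Mdm2 (ENSMUSG00000020184), the ubiquitin ligase, had 1955, 1928, 2004, 1839 and 1893 in normal lungs, which lie close together, and 2288, 2895, 2291, 2294, 2118, 1638 and 1551 in tumors. Tumors 1 to 5 lay above and tumors 6 and 7 below every normal lung, and the difference between groups was small beside this spread (log2 fold change 0.13, SE 0.15, limma adjusted p = 0.46). Mdm4 (ENSMUSG00000054387), a partner of Mdm2 that blocks the activation domain of p53, ranged over 2191 to 3073 in normal lungs, with a lowest of 2357, a median of 2752 and a highest of 3998 in tumors (log2 fold change 0.08, SE 0.15, limma adjusted p = 0.652).

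Ppm1d (ENSMUSG00000020525) encodes Wip1, a phosphatase that switches off p53 and the kinases upstream of it and is itself a p53 target. It had 484, 596, 554, 591 and 617 in normal lungs and 1328, 1191, 2039, 1267, 1648, 1274 and 876 in tumors. All 7 tumors lay above all 5 normal lungs, tumor 7 being the lowest, and Ppm1d rose (log2 fold change 1.23, SE 0.18, limma adjusted p = 6.63e-05). Of these 3 regulators, 1 was higher (33.3%, against 31.4% of all genes tested) and none was lower (against 30.1%).

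**Figure D2:**
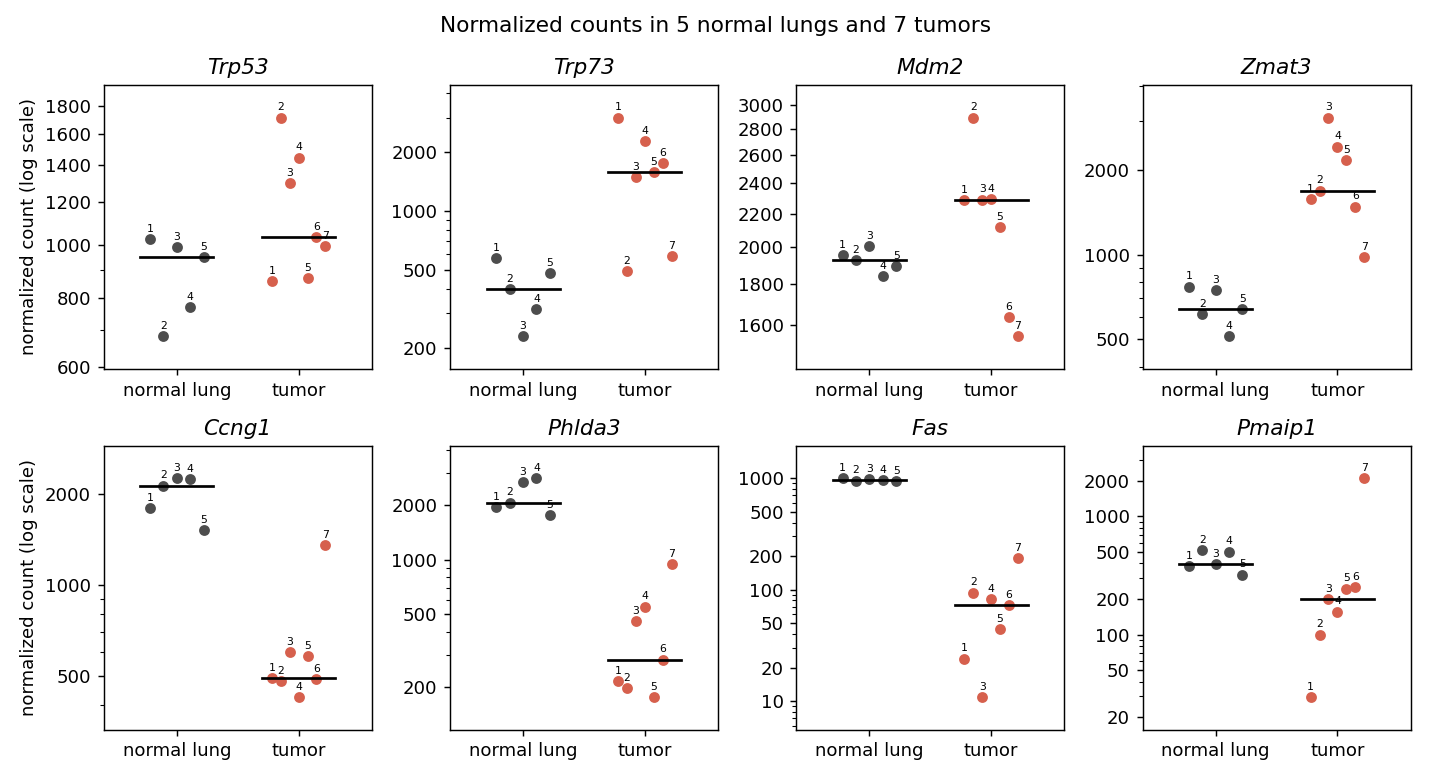
Normalized counts on a log scale of 8 genes in normal lungs (gray, n = 5) and tumors (red, n = 7), with the sample number above each point and a line at the group median. Ccng1, Phlda3 and Fas are below normal lung in all 7 tumors, Zmat3 is above in all 7, and tumor 7 alone of the tumors is above normal lung in Pmaip1.

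Targets of growth arrest and stress control moved in both directions, with 2 of 11 higher, 5 lower and 4 not passing. The share called was 63.6%, near the 61.5% of all genes tested. By direction, 18.2% were higher, against 31.4% of all genes tested, and 45.5% were lower, against 30.1%. Zmat3 (ENSMUSG00000027663), an RNA-binding protein, had 771, 616, 749, 513 and 643 in normal lungs and 1576, 1693, 3076, 2429, 2178, 1484 and 981 in tumors. Every tumor was above every normal lung, with tumor 3 the highest and tumor 7 the lowest (log2 fold change 1.47, SE 0.24, limma adjusted p = 0.000159). Ddit4 (ENSMUSG00000020108), an inhibitor of mTORC1 that is also induced by hypoxia and glucocorticoids, had 823, 973, 1139, 1085 and 719 in normal lungs and 5212, 2796, 7167, 2614, 2854, 3155 and 4872 in tumors. It rose with no overlap and had the largest increase of the 33 genes (log2 fold change 2.03, SE 0.25, limma adjusted p = 1.34e-05).

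Ccng1 (ENSMUSG00000020326), cyclin G1, whose promoter match is printed above, had 1793, 2132, 2249.8, 2239 and 1515 in normal lungs and 491, 480.1, 599.8, 426, 579.99, 488 and 1351 in tumors. Tumors 1 to 6 fell in a narrow band and tumor 7 stood apart, nearer to normal lung (log2 fold change -1.75, SE 0.25, limma adjusted p = 4.92e-05). Without tumor 7 its log2 fold change was -1.95. Plk2 (ENSMUSG00000021701), a kinase of the polo family, had 1462, 1745, 1879.9, 1604 and 1715 in normal lungs and 314, 344, 348, 361, 485, 665 and 494 in tumors. It fell with no overlap and with little spread (log2 fold change -2.01, SE 0.19, limma adjusted p = 9.84e-07).

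Btg2, Gadd45a and Sesn2 were also lower, with smaller changes that depended on the samples and the method. Btg2, an antiproliferative cofactor, had 1618, 872, 2298, 1585, 2299.8, 2842 and 4536 in tumors against 2943 to 5562 in normal lungs, so that tumor 7 lay within the normal range (log2 fold change -0.97, SE 0.33, limma adjusted p = 0.0212). Its call was lost under equal totals (-0.76, adjusted p = 0.0566), with DESeq2 (-0.83, adjusted p = 0.055), with edgeR (-0.76, adjusted p = 0.0879) and without normal lung 4 (-0.85, adjusted p = 0.0586). Gadd45a, a growth arrest and DNA damage protein, ranged over 255 to 526 in normal lungs, with a lowest of 192, a median of 237 and a highest of 304 in tumors (log2 fold change -0.61, SE 0.21, limma adjusted p = 0.0219). Its call was lost without normal lung 2 (-0.56), 3 (-0.58) or 4 (-0.47), under equal totals (-0.41), with edgeR (-0.54) and with same-numbered tumors averaged (-0.59). The exons of Gadd45a overlap those of E230016M11Rik on the opposite strand over 19.1% of their length, and use of the strand in counting is not stated. Sesn2, a sestrin that restrains mTORC1 under stress, had 275, 142, 215, 166, 218, 254 and 663 in tumors against 339.7 to 493 in normal lungs. Tumors 1 to 6 lay below and tumor 7 above every normal lung (log2 fold change -0.78, SE 0.31, limma adjusted p = 0.0434), and the call held in only 2 of the 12 fits that left out a sample, those without normal lung 2 and without tumor 7, and in neither edgeR (-0.47, adjusted p = 0.286) nor equal totals (-0.58, adjusted p = 0.129).

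The other 4 genes of this role did not pass. Sesn1, a second sestrin, ranged over 992 to 1331 in normal lungs, with a lowest of 749, a median of 1057 and a highest of 1234 in tumors (log2 fold change -0.17, SE 0.15, limma adjusted p = 0.35). Trp53inp1, a nuclear protein that promotes p53 phosphorylation and autophagy, ran from 1140.05 in tumor 2 to 4250.3 in tumor 3, against 1768 to 2875 in normal lungs (log2 fold change 0.02, SE 0.30, limma adjusted p = 0.967). Plk3, another polo family kinase, had 164 to 244 in normal lungs, 175 to 227 in tumors 1 to 6 and 501 in tumor 7 (log2 fold change 0.15, SE 0.26, limma adjusted p = 0.635). Gdf15, a secreted stress cytokine, had 55.5, 52.7, 173, 79.0 and 40.2 in normal lungs and 229.8, 8.34, 256, 143.7, 160.2, 65.4 and 188 in tumors. Tumor 2 was far below all other samples in Gdf15, and without it the gene passed the test at 1.19 (adjusted p = 0.0259), against 0.60 (SE 0.72, adjusted p = 0.486) with all tumors.

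Of the 11 apoptosis targets 0 were higher, 4 were lower (Fas, Perp, Phlda3 and Tnfrsf10b) and 7 did not pass. The share lower was 36.4%, near the 30.1% of all genes tested, while 31.4% of all genes tested were higher. Fas (ENSMUSG00000024778), a death receptor on many lung cell types, had 996, 952, 979, 966 and 942 in normal lungs and 24.1, 94.1, 10.9, 82.6, 44.5, 72.1 and 192 in tumors. Normal lungs were nearly equal and the highest tumor, tumor 7, was far below them, and Fas had the largest change of the 33 genes (log2 fold change -4.14, SE 0.54, limma adjusted p = 2.02e-05). Perp (ENSMUSG00000019851), a membrane protein of desmosomes, had 596, 669, 517, 798 and 735 in normal lungs and 279, 129, 62.5, 203, 61.5, 98.4 and 504 in tumors, with tumor 7 just below the lowest normal lung (log2 fold change -2.16, SE 0.46, limma adjusted p = 0.00122). Phlda3 (ENSMUSG00000041801), a pleckstrin-homology protein that inhibits Akt at the membrane, had 1937, 2059, 2666, 2793 and 1759 in normal lungs and 215, 197, 462, 552, 176, 282 and 943 in tumors, again without overlap and with tumor 7 the highest (log2 fold change -2.70, SE 0.38, limma adjusted p = 3.69e-05). Tnfrsf10b, the mouse TRAIL receptor, was at the edge of the threshold (log2 fold change -0.94, SE 0.39, limma adjusted p = 0.0499999). It ranged over 115 to 189 in normal lungs and had 50.6, 131, 32.7, 56.6, 70.4, 72.1 and 204 in tumors, of which tumor 2 lay within and tumor 7 above the normal range. The call held in only 2 of 12 fits that left out a sample, those without tumor 2 and without tumor 7, and was lost with edgeR (-0.49, adjusted p = 0.282).

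Lung epithelium, endothelium and leukocyte markers were, like Fas, Perp and Phlda3, lower in tumors as a group. In tumor 7 the leukocyte sum (6875) lay within the normal lung range of 5634 to 9526, while Fas, Perp and Phlda3 lay below every normal lung. The 5 endothelium markers, all lower and none at 0, summed to 54821 to 68035 in normal lungs and 701 to 4556 in tumors, tumor 7 being the highest. The part of these cell types in the lower levels of Fas, Perp and Phlda3 was not tested.

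Genes of the mitochondrial branch did not pass. Bbc3 (ENSMUSG00000002083), which encodes the BH3-only protein Puma, had 1056, 815, 816, 866 and 848 in normal lungs and 1029, 1080.5, 1683, 1382, 764, 1045 and 801 in tumors. Tumors 3 and 4 were the highest and tumors 5 and 7 lay below every normal lung (log2 fold change 0.29, SE 0.19, limma adjusted p = 0.198), and under equal totals Bbc3 passed (0.50, adjusted p = 0.0296). Bax, the pore former of the outer mitochondrial membrane, ranged over 255 to 449 in normal lungs, with a lowest of 314, a median of 409 and a highest of 564 in tumors (log2 fold change 0.37, SE 0.21, limma adjusted p = 0.146), and passed under equal totals (0.57) and without the trachea-titled tumors (0.52). Pmaip1 (ENSMUSG00000024521), which encodes the BH3-only protein Noxa, had 377, 515, 394, 504 and 322 in normal lungs and 29.8, 100.1, 199, 156, 244, 253 and 2087 in tumors. Tumors 1 to 6 lay below and tumor 7 above every normal lung, and the difference did not pass (log2 fold change -1.06, SE 0.73, limma adjusted p = 0.222). Without tumor 7 Pmaip1 was lower (-1.62, adjusted p = 0.00838), and edgeR with tumor 7 gave the opposite sign (0.30, adjusted p = 0.776).

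The other 4 apoptosis genes did not pass either. Eda2r, a receptor for ectodysplasin A2, had 69.6, 80.6, 100.1, 49.4 and 50.6 in normal lungs and 19.0, 48.8, 361, 270.3, 197, 138 and 80.7 in tumors. Tumors 3, 4, 5 and 6 lay above every normal lung and tumors 1 and 2 below (log2 fold change 0.71, SE 0.62, limma adjusted p = 0.335), and without the trachea-titled tumors Eda2r passed at 1.29 (adjusted p = 0.0299), although its sign turned when Y-linked expression was a covariate (-0.36). Aen, an apoptosis-enhancing nuclease, had 538 to 671 in normal lungs and a lowest of 365, a median of 507 and a highest of 1147 in tumors, the highest being tumor 2 (log2 fold change -0.20, SE 0.25, limma adjusted p = 0.516). Ei24, an endoplasmic reticulum protein, had 249 to 293 in normal lungs and a lowest of 255, a median of 403 and a highest of 431 in tumors (log2 fold change 0.37, SE 0.18, limma adjusted p = 0.0875), and passed under equal totals (0.57, adjusted p = 0.0113) and without tumor 7 (0.45, adjusted p = 0.0288). Rps27l, a ribosomal protein of the small subunit, had 89.7 to 203 in normal lungs and a lowest of 71.5, a median of 97.3 and a highest of 196 in tumors (log2 fold change 0.02, SE 0.31, limma adjusted p = 0.957). Rps27l resembles its paralog Rps27, and whether reads were split between the pair in counting was not tested.

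Of the 5 genes of DNA repair and nucleotide supply, 3 were lower and 0 were higher. The share called, 60%, was near the 61.5% of all genes tested. By direction, 60% of these 5 genes were lower, against 30.1% of all genes tested, and 0 were higher, against 31.4%. Rrm2b (ENSMUSG00000022292), the p53-inducible subunit of ribonucleotide reductase, had 647, 846, 683, 748 and 693 in normal lungs and 460.2, 257, 236, 141, 289.6, 272 and 340.1 in tumors and fell with no overlap (log2 fold change -1.41, SE 0.24, limma adjusted p = 0.00019). Xpc, which recognizes lesions in global genome nucleotide excision repair, had 925, 1059, 761, 976 and 943 in normal lungs and 769.8, 656, 489.8, 576, 438, 511 and 383 in tumors, where only tumor 1 reached the lowest normal lung (log2 fold change -0.80, SE 0.18, limma adjusted p = 0.00169). Its call was lost when Y-linked expression entered the fit as a covariate (-0.47, adjusted p = 0.0695). Genes of the Y chromosome were high in 4 of 5 normal lungs and 1 of 7 tumors, so the sex of the animals and the tissue are partly confounded. Polk, a translesion polymerase, had 319 to 484 in normal lungs and a lowest of 174, a median of 299 and a highest of 445 in tumors (log2 fold change -0.59, SE 0.24, limma adjusted p = 0.0467), and its call held in 4 of 12 fits that left out a sample, those without normal lung 4 and without tumor 1, 5 or 7, and was lost with edgeR (-0.40, adjusted p = 0.18). Ddb2, the damage sensor that acts before Xpc, did not pass (log2 fold change 0.19, SE 0.20, limma adjusted p = 0.442), with 274 to 446 in normal lungs and a lowest of 284, a median of 399.6 and a highest of 597 in tumors. Its exons overlap those of Acp2 on the opposite strand over 23.8% of their length. Ercc5, the nuclease that cuts beside the lesion, was nearly equal in both groups, at 521 ± 56.1 (SD, n = 5) and 528 ± 94.1 (SD, n = 7), and its difference did not pass the test (log2 fold change 0.01, SE 0.15, limma adjusted p = 0.97).

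**Figure D3:**
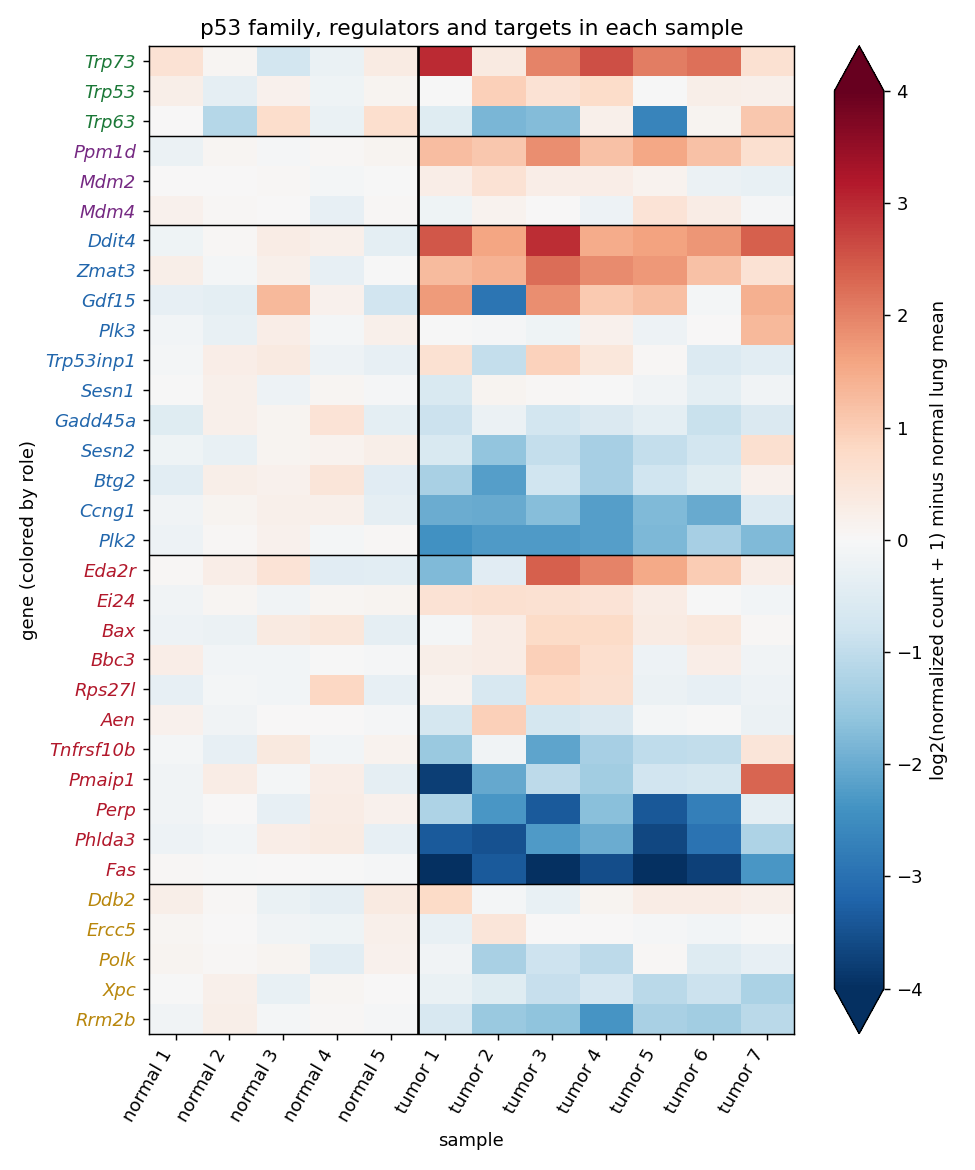
Each of the 33 genes (rows, colored by role) in each of the 12 samples (columns), as log2(normalized count + 1) minus the mean of the 5 normal lungs, with red above and blue below that mean and values beyond 4 in the end colors. Fas, Phlda3, Perp and Plk2 are blue in all 7 tumors, and Ddit4, Zmat3 and Ppm1d are red in all 7. Tumor 7 is the highest tumor in Pmaip1, Ccng1 and Sesn2, being above the normal lung mean in Pmaip1 and Sesn2 and below it in Ccng1.

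The tumors differed among themselves more than the normal lungs did. In 31 of the 33 genes the SD of log2 values was larger across tumors than across normal lungs, where this held for 77.3% of all genes tested. The widest was Pmaip1, with an SD of 1.83 across tumors and 0.29 across normal lungs, followed by Gdf15 (1.68 and 0.80). The steadiest across tumors was Ercc5 (0.24 and 0.15).

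Tumor 7 was the highest tumor in 10 of the 33 genes, among them 7 of the 12 lower ones (Ccng1, Btg2, Sesn2, Phlda3, Fas, Tnfrsf10b and Perp), and the lowest tumor in Ppm1d and Zmat3, 2 of the 4 higher ones. Outside the 33 it was also the highest tumor in each endothelium and leukocyte marker and in Dram1 and Epha2, which were lower. How often tumor 7 was the highest tumor over all genes tested was not counted. In 4 of the 12 lower genes tumor 7 reached or exceeded the lowest normal lung, as tumors 1, 2 and 5 each did in 2 and tumors 3, 4 and 6 in 0. In the same sample the leukocyte sum was 6875, within the normal lung range. The 5 fibroblast markers summed to 22257, against 2548 to 14537 in the other tumors and 9426 to 20791 in normal lungs. The 4 cardiac muscle markers summed to 25648, against 123 to 1584 in the other tumors and 179 to 3397 in normal lungs. The lung epithelium sum of tumor 7 was 789, within the range of the other tumors. The part of these cells in the values of tumor 7 was not tested.

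Tumor 3 was the highest tumor in 9 genes, all outside the 12 lower ones (Ppm1d, Gdf15, Zmat3, Ddit4, Trp53inp1, Bbc3, Bax, Eda2r and Rps27l). Tumors 3 and 4, which share the title number 159, were the highest pair in 5 of the 33 genes (Zmat3, Bbc3, Bax, Eda2r and Rps27l). Tumor 2 was the highest tumor in Trp53, Mdm2, Gadd45a, Sesn1, Aen, Ei24 and Ercc5, and the lowest in Trp73, Btg2, Gdf15, Sesn2, Trp53inp1, Rps27l and Polk. The tumor with the highest Trp53 value thus held both the highest and the lowest tumor values of p53 targets. These patterns were noticed in the data and are given as descriptions. The matching shares over all genes tested were not computed.

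Levels of different genes were set on one scale by dividing the mean normalized count by the length of the annotated exons in kilobases. In normal lung Btg2 (1509 per kilobase) and Phlda3 (1439) ranked highest, followed by Ccng1 (565) and Ddit4 (539.9). In tumors Ddit4 ranked highest (2334 per kilobase), followed by Btg2 (836), Bbc3 (524) and Ppm1d (433). Fas went from rank 5 in normal lung (469) to rank 29 in tumors (36.1), and Trp73 from rank 27 (72.3) to rank 8 (289), next to Trp53 at rank 7 (290.4). Trp63 ranked last in both, at 2.04 and 1.51 per kilobase.

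Further genes of the pathway were read from 2 lists. Of 27 further p53 targets in the table, 11 were higher, 8 lower and 8 did not pass, against backgrounds of 31.4% higher and 30.1% lower, and their median log2 fold change was -0.06. Cdkn1a (ENSMUSG00000023067), the inhibitor of cyclin-dependent kinases through which p53 arrests the cell cycle, had 1564, 1445, 2613, 2108 and 1168 in normal lungs and 6173, 2622, 16265, 9889.5, 5968, 3059 and 3676 in tumors. Every tumor was above every normal lung, tumor 2 only just, and tumors 3 and 4 were the highest (log2 fold change 1.71, SE 0.41, limma adjusted p = 0.00247). Ckap2, a spindle protein of dividing cells, rose from a range of 32.3 to 85.6 in normal lungs to one of 1257 to 3775 (log2 fold change 5.76, SE 0.32, limma adjusted p = 7.09e-09). Pidd1, a death domain protein that activates caspase-2, rose from a range of 66.3 to 109.8 in normal lungs to one of 1061 to 4068 (log2 fold change 4.62, SE 0.27, limma adjusted p = 1.33e-08). Dram1, a lysosomal regulator of autophagy, fell from a range of 10161 to 11634 in normal lungs to one of 111 to 569 (log2 fold change -5.40, SE 0.35, limma adjusted p = 2.6e-08), and Epha2, an ephrin receptor of epithelium, from a range of 1181 to 1796 in normal lungs to one of 46.6 to 204 (log2 fold change -3.85, SE 0.38, limma adjusted p = 1.62e-06). Lack of overlap was a condition for naming these 4, and over the list it held for 15 of 27 genes (55.6%), against 38.4% of all genes tested.

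Of 23 kinases, modifiers and cofactors of p53, 12 were higher, 3 lower and 8 did not pass, with a median log2 fold change of 0.39. The share called was 65.2%, near the 61.5% of all genes tested, with 52.2% higher against 31.4% and 13.04% lower against 30.1%. Chek1, the checkpoint kinase that acts with Atr at stalled forks, rose from a range of 18.1 to 53.3 in normal lungs to one of 257 to 654 (log2 fold change 4.12, SE 0.31, limma adjusted p = 1.24e-07). Cdkn2a, the locus of the Mdm2 inhibitor p19Arf and of the kinase inhibitor p16Ink4a, rose from a range of 27.6 to 58.1 in normal lungs to one of 1479 to 2664 (log2 fold change 5.59, SE 0.22, limma adjusted p = 4.91e-10). A gene-level count does not separate the 2 products. Trp53bp2 and Ppp1r13b, the ASPP cofactors that favor binding of p53 to apoptosis genes, fell, Trp53bp2 from a range of 1889.6 to 2666 in normal lungs to one of 587 to 992 (log2 fold change -1.64, SE 0.16, limma adjusted p = 1.03e-06) and Ppp1r13b from a range of 921 to 1172 in normal lungs to one of 250.2 to 755 (log2 fold change -0.91, SE 0.25, limma adjusted p = 0.00646). The call of Ppp1r13b was lost under the Y-linked covariate (-0.67, adjusted p = 0.107).

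**Figure D4:**
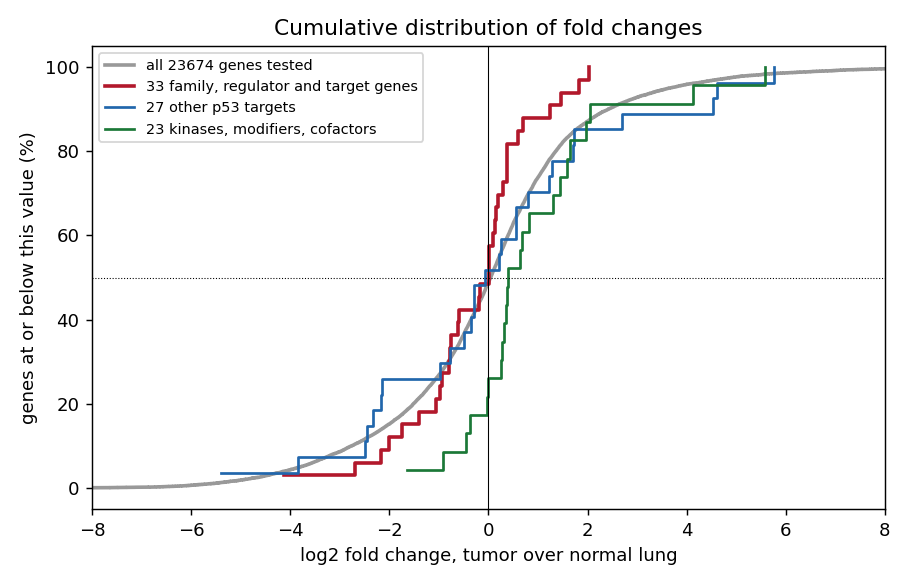
Share of genes (vertical axis, percent) at or below each log2 fold change of tumor over normal lung (horizontal axis) for all 23674 genes tested, the 33 genes described here, 27 other p53 targets and 23 kinases, modifiers and cofactors. The median is 0.01 for the 33 genes, 0.04 for all genes, -0.06 for the other targets and 0.39 for the kinases, modifiers and cofactors.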

How the data were processed

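Samples were stored in an RNA-preserving solution and messenger RNA was selected by its poly-A tail and sequenced as paired ends on an Illumina NovaSeq, per the labels' protocols. The deposited values are a normalized count signal per gene. Per the submitters' processing notes the authors used featureCounts, DESeq2 and the build GRCm39. The aligner, the annotation and use of the strand are not given in the sources used here. Every value was a whole multiple of the worth of 1 read in its column (100% within a tolerance of 0.01), from which reads were computed. In tumor 3 that worth, 0.991, was too near 1 for the match to show that these are reads, so tumor 3 was left out of the count tests. All 25 pairs of samples within a group differed beyond sampling noise (chi-square at least 18.4 per degree of freedom). Gene symbols came from GENCODE M21, which named 29982 of the 30399 identifiers.

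The 23674 genes whose mean reached 1 entered limma 3.58.1 as log2(value + 1) (R 4.3.3), using a mean-variance trend and Benjamini-Hochberg adjustment. Groups came from the tissue labels. The 33 genes and the gene lists were chosen with earlier results of these data known. Named genes are the 33, Cdkn1a and, per pathway list, the 2 largest changes in each direction among genes that passed without overlap between groups and had a mean of 16 or more. Gtse1, Wrap53, Apaf1, Bid and the marker genes were named outside this rule. Fbxw7, Itgam and Actc1 were not analysed here. Alternatives were equal totals, quantile normalization, a pseudocount of 0.1, no filter, a minimum mean of 10, averaging or correlating tumors with 1 title number (consensus correlation 0.304), a covariate for Y-linked genes, omission of tumors 1 and 7, and omission of each sample in turn. EdgeR 4.0.16 and DESeq2 1.42.0 on the recovered reads of 11 samples were added after seeing the data. The limma steps were also run on simulated counts with few changed genes and the same dispersion in both groups. These data differ in both respects, so that run does not test the fit under their conditions. Read totals and floors cover counting error only. Promoter sequences are RefSeq's on GRCm38.p6, and exon lengths GENCODE's on GRCm38, which is not the build of the counts, so no other coordinates are given.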

Additional observations from a re-analysis of the deposited data

Results flagged for a closer look

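Each gene named by the rule given above was examined in normal lungs and in tumors. A group stood out if 1 of its samples lay apart from the others in log2(value + 1). The limit was the 95% limit of Dixon's ratio of the gap to the range. Of 84 groups examined 12 stood out, where chance gives about 1 in 20.

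Tumor 7 accounted for 5 of the 12. It was the highest tumor in Ccng1 (10.40 against 8.74 to 9.23 in the other tumors), in Plk3 (8.97 against 7.46 to 7.83) and in Sesn2 (9.37 against 7.16 to 8.11). It was the lowest tumor in Ckap2 (10.30 against 11.22 to 11.88) and in Chek1 (8.01 against 8.85 to 9.36). Tumor 2 was the lowest tumor in Gdf15 (3.22 against 6.05 to 8.004) and the highest in Aen (10.17 against 8.52 to 9.20) and Ercc5 (9.50 against 8.73 to 9.04).

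Among normal lungs, sample 4 was the lowest in Mdm4 (11.10 against 11.45 to 11.59) and Polk (8.32 against 8.82 to 8.92) and the highest in Rps27l (7.67 against 6.50 to 6.75). Normal lung 1 was the highest in Bbc3 (10.05 against 9.67 to 9.76).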

How the results depend on the processing

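All gene-wide counts stayed within 1.5 times their values under the alternatives run. Counts of the 33 genes moved further in 4 places. There were 8 higher and 7 lower under equal totals, 8 higher without the trachea-titled tumors, and 7 lower with edgeR on 11 samples, against 4 higher and 12 lower. Over all genes tested, equal totals gave 8594 higher and 6129 lower. Without the trachea-titled tumors 7598 were higher, and edgeR gave 4821 lower of 18308. The main fit gave 7430 higher and 7124 lower of 23674. Leaving out each sample in turn gave 4 to 5 higher and 8 to 13 lower of the 33, and 6815 to 7693 higher and 6549 to 7570 lower of all genes. Of the kinases, modifiers and cofactors 1 was lower, against 3, when Y-linked expression entered as a covariate. Of all genes 5758 were lower in that fit. EdgeR also shifted the median fold change of all genes by 0.10. Of the single-gene values under alternatives, 860 kept their direction and their side of the threshold, 59 lost the call, 14 gained one and 32 changed sign, all 32 in genes that did not pass. Signs changed for Sesn1 (0.04) and Aen (0.01) under equal totals, for Mdm4 (-0.05), Plk3 (-0.03), Eda2r (-0.36) and Ercc5 (-0.05) with the Y-linked covariate, for Ercc5 under quantile normalization (-0.01), for Plk3 (-0.05) and Trp53inp1 (-0.02) without the trachea-titled tumors, for Rps27l with same-numbered tumors averaged (-0.02), for Pmaip1 (0.30), Aen (0.08) and Rps27l (-0.03) with edgeR, and for Trp53inp1 (-0.03), Aen (0.02) and Rps27l (-0.09) with DESeq2. Leaving out each sample in turn gave -0.04 to 0.22 for Plk3, -0.14 to 0.18 for Trp53inp1, -0.11 to 0.23 for Rps27l and -0.07 to 0.06 for Ercc5. The cause of these changes was not tested. EdgeR and DESeq2 on all 12 samples were not run, because whole reads were not accepted as recovered for tumor 3. No paired analysis was possible because the labels give the groups no shared replicate numbers. Depth limits Trp63, with values down to 1.62, under the value of 3 reads.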
